A study of Oreochromis niloticus with 6 samples.

Results

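Sphingolipid and ceramide metabolism genes were followed in the liver of Nile tilapia, Oreochromis niloticus, a fish of fresh water that is widely farmed. The members were all genes that the deposited table assigns to the pathway of sphingolipid metabolism, or whose product description contains ceramide synthase, ceramidase or sphingosine, apart from genes also assigned to the lysosome. This took 67 of 29528 genes, 60 by the pathway and 7 sphingosine-1-phosphate receptors by the description alone, after 15 lysosomal genes had been set aside. The rule uses no measured value. Livers labelled elovl6 knockdown, treated with antisense RNA, were compared with livers of a negative control labelled WT (3 libraries each), and the stated question was what elovl6, an elongase of palmitic acid, regulates in lipid and glucose metabolism. All fish were male and ate pellets with 5% palm oil, the age of the fish and the way the antisense RNA was given are not stated in the sources used here, and the control was not described beyond its name. RNA came from 18 fish (9 in each group), and that of replicate tanks was pooled, so a library is a pool of whole liver. Whether libraries of a group held different pools is not clear from the wording, and p-values measure only the spread between libraries, which may be technical.

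Sphingolipids are membrane lipids built on a sphingoid base. Serine palmitoyltransferase joins serine with palmitoyl-CoA, a reductase and a ceramide synthase turn the product into dihydroceramide, and a desaturase completes ceramide. Ceramide then receives a phosphocholine head (sphingomyelin), a phosphate or a sugar (glycosphingolipids), or is cut by ceramidases to sphingosine. Sphingosine kinase makes sphingosine-1-phosphate (S1P), a ligand of cell surface receptors. S1P is either dephosphorylated back to sphingosine or cut by S1P lyase, the step by which sphingoid bases leave the pathway. In mammalian liver, ceramides with very long acyl chains predominate and ceramides have been studied for their part in insulin resistance.

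Library totals ranged from 14341242 to 14973737 reads in knockdown and from 15322360 to 17245179 in control libraries. The targeted gene, elovl6, was at 37.6 ± 1.48 FPKM (fragments scaled by gene length and library total) in knockdown and 162 ± 1.53 FPKM in control libraries (SD, n = 3 each). Its log2 fold change was -2.12 (SE 0.05, edgeR adjusted p = 1.58e-22), and the exact permutation test gave 0.1 (2-sided), the smallest p that 3 against 3 libraries allow. Of the 8 hepatocyte markers found among 20 listed symbols 3 rose (fga, apobb.1 and cp) and 5 fell, and they summed to 28271 to 28584 FPKM in knockdown and 38254 to 39624 FPKM in control libraries, so the liver label held in all 6. Markers of other cells also moved with the groups. Beside all marker counts here, 39.1% of all 11431 genes tested rose and 39.1% fell (the test is given below). The 10 exocrine pancreas genes found summed to 158 to 275 FPKM in knockdown and 32288 to 32850 FPKM in control libraries, all 9 tested fell, and pla2g1b had no read in the knockdown. Of 13 endothelial markers found 10 were tested and all 10 rose (summed 104 to 114 against 41.3 to 43.3 FPKM). Among the untested, vwf had 11 reads in knockdown and 107 in control libraries. Of 16 leukocyte markers found 10 were tested and all 10 rose (796 to 807 against 286 to 307 FPKM), and most of that sum was cd74 and cd74b. The 6 untested lymphocyte markers went both ways, with 30 and 79 reads for cd79a, 33 and 57 for cd79b, 47 and 90 for cd4-1, 41 and 50 for lck, 74 and 54 for zap70 and 167 and 63 for il2rb in knockdown and control libraries. Rises were also found for all 5 tested bile duct markers (907 to 945 against 480 to 501 FPKM, with cldn15la at 0 in every library). Most of that sum was krt8 and krt18a.1, and untested cftr had 106 reads in knockdown and 169 in control libraries. All 3 tested erythrocyte markers fell (24.5 to 26.1 against 105 to 113 FPKM, hbae5 at 0 in the knockdown), and of 9 tested stellate and connective tissue markers 4 rose and 2 fell (30.3 to 35.9 against 25.0 to 30.4 FPKM, lum at 0 in the knockdown). The part of these cell types in the changes below was not tested, and in whole liver fewer cells of a type cannot be told apart from less RNA per cell.

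Genes of sphingolipid metabolism changed in both directions, with little net movement of their summed level. Genes with a mean of at least 1 FPKM over the 6 libraries were tested, and a gene was called changed at an adjusted p under 0.05 (edgeR). Of the 67 members 39 passed that filter, 15 rose and 18 fell. That is 84.6% of those tested, beside a background of 78.2% of all 11431 genes tested (39.1% higher and 39.1% lower), so the share called says little about the members. At least 2-fold changes were seen in 12 that rose (background 22.1%) and 11 that fell (background 20.9%), together 59.0% of the tested members beside 42.9% of all genes tested. The groups did not overlap in 32 of 39 (82.1%, background 79.5%). The median log2 fold change was 0.0044 over the tested members and -0.0089 over all genes tested, and the median absolute log2 fold change was 1.1 and 0.84. Among genes averaging at least 5 FPKM the median was -0.32 for 22 members and 0.0041 for all genes, so the member median depends on the filter. Of the 39, 7 passed the filter only through the group in which they were higher. Among them, 6 had a control mean under 1 FPKM (cers6, cers3b, LOC100703068, b4galt6, zgc:158263 and s1pr5a) and 1 had a knockdown mean under 1 FPKM (sgpl1). All of the 7 except b4galt6 are among the members changed at least 2-fold, so that share depends in part on the filter. With no filter 59 members could be fitted, of which 20 rose and 22 fell (background 52.4% of 22678 genes). Summed over all 67 members, expression was 564 ± 8.75 FPKM in knockdown and 541 ± 9.22 FPKM in control libraries (SD, n = 3), while single steps moved much further, as the plot of levels by library shows.

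**Figure D1:**
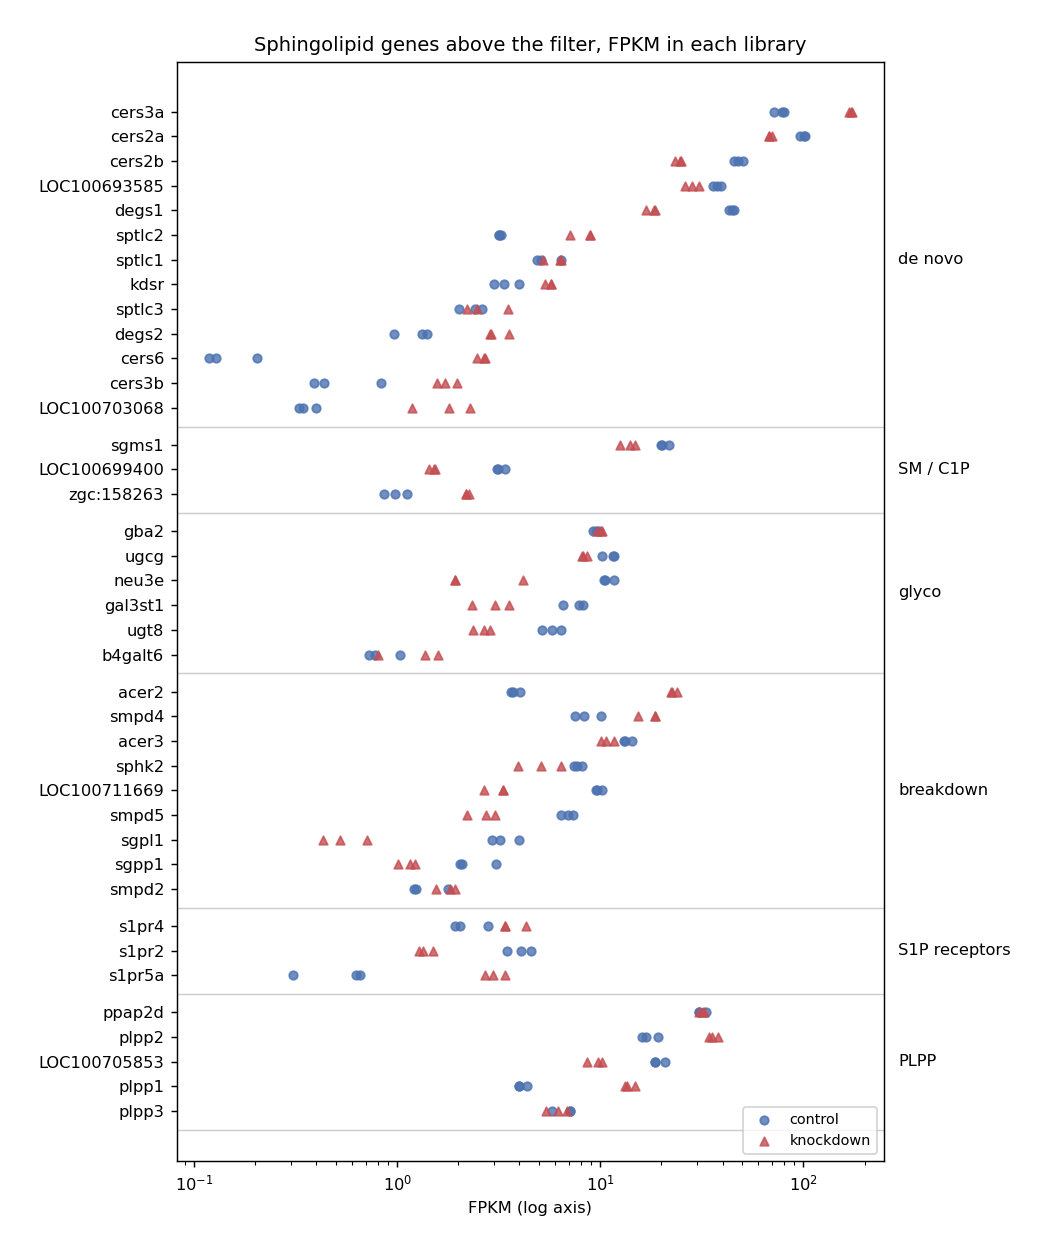
FPKM (log axis) of the 39 tested sphingolipid genes in each library, circles for the 3 control and triangles for the 3 knockdown libraries, grouped by role (SM / C1P, synthesis of sphingomyelin and ceramide-1-phosphate; PLPP, phospholipid phosphatases). Levels run from 0.118 FPKM for cers6 in a control library to 173 FPKM for cers3a in a knockdown library. Circles and triangles are apart in 32 genes (82.1%, background 79.5%).

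Of the 17 genes of de novo synthesis 13 were tested, 7 rose and 4 fell (median log2 fold change 0.69). Among the 7, cers6, cers3b and LOC100703068 passed the filter only through the knockdown libraries, so this count and median depend in part on the filter. Beside the counts of this and the other roles, 39.1% of all genes tested were higher and 39.1% lower. Serine palmitoyltransferase, the entry step, works as a dimer of subunit 1 with subunit 2 or 3. Subunit 2 has a pair of copies, and both rose. The sptlc2 copy (LG15, 2853587 to 2872084, plus strand) was at 7.06, 8.93 and 8.90 FPKM in knockdown libraries 1, 2 and 3 and at 3.16, 3.26 and 3.17 FPKM in the controls. Every knockdown library was thus more than 3 FPKM above every control (log2 fold change 1.37, SE 0.12, adjusted p = 8.89e-11). The weaker copy, LOC100703068 (LG19, 26047749 to 26068598, plus strand), was at 1.18, 2.28 and 1.79 against 0.327, 0.345 and 0.398 FPKM (log2 fold change 2.28, SE 0.24, adjusted p = 3.44e-09), and it passed the filter only through the knockdown libraries. The obligate partner sptlc1 was at 5.98 ± 0.674 and 5.46 ± 0.810 FPKM and sptlc3 at 2.73 ± 0.674 and 2.35 ± 0.305 FPKM in knockdown and control (adjusted p = 0.446 and 0.405), and for both the groups overlapped. In the controls sptlc1 held 47.9% ± 4.59 of the summed FPKM of the 4 subunit genes and sptlc2 28.2% ± 1.01. In the knockdown sptlc2 held the larger share, 44.1% ± 2.34 against 31.9% ± 1.04 for sptlc1. The next enzyme, 3-ketodihydrosphingosine reductase (kdsr, named with cers2a, cers2b, LOC100693585, ugcg, b4galt6, acer3, sphk2 and the not-called members after the values were seen), rose to 5.57 ± 0.200 FPKM from 3.44 ± 0.496 (log2 fold change 0.69, SE 0.12, adjusted p = 1.39e-05).

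Ceramide synthases changed places in rank. These enzymes attach the acyl chain, and in mammals each prefers certain chain lengths. The table lists 10, of which 6 were tested. RefSeq symbols and the table's product descriptions differ for some: LOC100710960 and LOC100711452 carry the symbols cers3a and cers3b but are described as ceramide synthase 2, like cers2a and cers2b. Transcripts of cers3a (LG1, 5012648 to 5036080, minus strand) were at 168, 173 and 171 FPKM in knockdown libraries 1 to 3 and at 80.6, 78.5 and 71.5 FPKM in the controls, 2.20-fold higher (log2 fold change 1.14, SE 0.05, adjusted p = 2.72e-17). This was the most abundant sphingolipid transcript of the knockdown livers, whereas cers2a was that of the controls. In mammals CERS3 makes ceramides with very long chains in skin and testis, and CERS2 does so in liver.

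The gene cers2a (LOC100706045, LG22, 16874352 to 16888611, minus strand) was at 67.9, 67.8 and 70.3 against 96.3, 101 and 101 FPKM (log2 fold change -0.54, SE 0.05, adjusted p = 2.84e-10). Its copy cers2b (LOC100710068) fell from 47.9 ± 2.36 to 24.2 ± 0.871 FPKM (log2 fold change -0.99, SE 0.05). LOC100693585, described as ceramide synthase 5, fell from 37.6 ± 1.63 to 28.4 ± 2.17 FPKM (-0.41, SE 0.07). The FPKM ratio of cers3a to cers2a was 2.43 to 2.55 in knockdown and 0.705 to 0.837 in control libraries. The summed level of all 10 genes differed far less, with 298 ± 4.41 FPKM in knockdown and 265 ± 4.24 FPKM in the controls. Of that sum cers3a held 57.1% ± 1.1 in knockdown and 29.0% ± 1.68 in the controls, and cers2a 23.0% ± 0.159 and 37.6% ± 1.04.

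**Figure D2:**
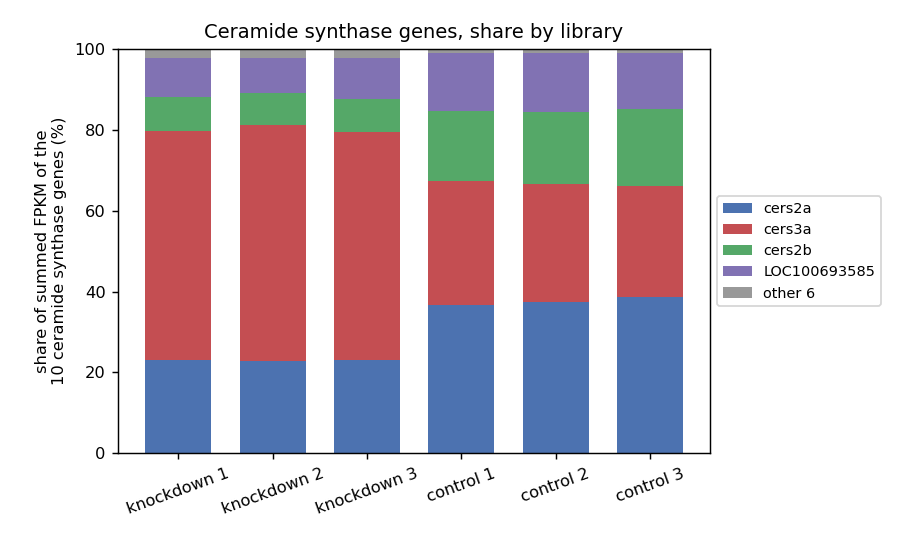
Share (%) of the summed FPKM of the 10 ceramide synthase genes held by the 4 most abundant and by the other 6 together, in each library. The cers3a share is 56.3% to 58.4% in knockdown and 27.3% to 30.7% in control libraries.

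The largest rise among all tested members was in a rare ceramide synthase, cers6 (LG16, 15845470 to 15868081, plus strand). It had 98, 90 and 104 reads (2.67, 2.46 and 2.72 FPKM) in knockdown and 5, 5 and 9 reads (0.118, 0.128 and 0.204 FPKM) in control libraries. All knockdown libraries were far above the controls (log2 fold change 4.08, SE 0.37, adjusted p = 2.80e-10), though cers6 made up only 0.877% ± 0.0417 of ceramide synthase expression there. It passed the filter only through the knockdown libraries, as did cers3b. The gene cers3b was also higher, at 1.98, 1.71 and 1.56 against 0.438, 0.837 and 0.388 FPKM (log2 fold change 1.66, SE 0.39, adjusted p = 0.000464). Below the filter stood cers1 (0.683 ± 0.0432 against 1.31 ± 0.167 FPKM), cers5 (1.01 ± 0.457 against 0.309 ± 0.0623), LOC100702158 (0.441 ± 0.0866 against 0.142 ± 0.0275) and LOC100693121 (0.0732 ± 0.0968 against 0.209 ± 0.142).

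The last de novo enzymes, the desaturases that turn dihydroceramide into ceramide, moved apart. The main desaturase degs1 (LG13, 30615391 to 30620906, plus strand) was at 16.7, 18.5 and 18.4 FPKM in knockdown and 44.4, 42.9 and 45.7 FPKM in control libraries, with no overlap. The fall was 2.50-fold (log2 fold change -1.32, SE 0.06, adjusted p = 1.05e-15). The relative degs2, whose mammalian enzyme also hydroxylates dihydroceramide, was at 2.87, 3.56 and 2.91 against 1.33, 1.41 and 0.969 FPKM (log2 fold change 1.33, SE 0.25, adjusted p = 4.79e-05). The summed level of both was 21.0 ± 1.26 FPKM in knockdown and 45.6 ± 1.21 FPKM in control libraries, and the ratio of degs1 to degs2 was 5.20 to 6.33 in knockdown and 30.5 to 47.2 in the controls.

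Genes that put a phosphate-containing head on ceramide numbered 6. Of these 3 were tested, 1 rose and 2 fell (median log2 fold change -0.59, background 39.1% in each direction). Sphingomyelin synthase 1, sgms1, the most abundant, was at 14.8, 14.0 and 12.5 against 20.2, 21.8 and 19.8 FPKM in knockdown and control libraries (log2 fold change -0.59, SE 0.07, adjusted p = 9.87e-08). Its relatives were rare: sgms2b had 112 reads in knockdown and 47 in control libraries, and sgms2 had 0 and 23. Ceramide kinase, which makes ceramide-1-phosphate, has copies that moved in opposite directions. LOC100699400 (LG7) was at 1.51, 1.54 and 1.43 against 3.10, 3.38 and 3.14 FPKM (log2 fold change -1.11, SE 0.13, adjusted p = 4.21e-08). In contrast, zgc:158263 (LOC100702731, LG20) was at 2.18, 2.25 and 2.17 against 0.973, 0.863 and 1.12 FPKM (log2 fold change 1.15, SE 0.23, adjusted p = 7.93e-05). It passed the filter only through the knockdown libraries. The order of LOC100699400 and zgc:158263 was reversed between the groups in every library, with a ratio of 0.658 to 0.692 in knockdown and 2.81 to 3.91 in the controls. The sum of the 3 kinase genes was 3.72 ± 0.0554 and 4.22 ± 0.112 FPKM. The gene that carries the symbol cerk had 6 and 8 reads.

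Of 12 glycosphingolipid genes 6 were tested, 1 rose and 4 fell (median log2 fold change -0.79, background 39.1% in each direction). The summed level of the 12 was 28.3 ± 0.975 FPKM in knockdown and 46.2 ± 0.954 FPKM in control libraries. On the galactosylceramide branch both tested genes fell (background 39.1% lower). Transcripts of ugt8, which adds galactose to ceramide, were at 2.67, 2.36 and 2.85 against 5.17, 6.37 and 5.76 FPKM (log2 fold change -1.14, SE 0.11, adjusted p = 2.04e-09). Those of gal3st1, which adds sulfate to make sulfatide, were at 3.04, 3.57 and 2.34 against 8.19, 7.81 and 6.57 FPKM (log2 fold change -1.34, SE 0.16, adjusted p = 3.71e-08). No knockdown library reached a control library for either gene. A second sulfotransferase gene, gal3st1b, was below the filter with 32 reads in knockdown and 28 in control libraries.

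The first enzyme of the glucosylceramide branch, ugcg, fell from 11.2 ± 0.847 to 8.31 ± 0.231 FPKM (log2 fold change -0.43, SE 0.09, adjusted p = 0.000165). Lactosylceramide synthase b4galt6 was called higher (log2 fold change 0.55, SE 0.24, adjusted p = 0.0382), but its groups overlapped, with 1.58, 0.808 and 1.36 against 1.03, 0.726 and 0.780 FPKM. Its control mean was under 1 FPKM, so it passed the filter only through the knockdown libraries. The call was lost without knockdown library 1 (adjusted p = 0.214), without knockdown library 3 (0.106), without control library 2 (0.138) and without control library 3 (0.112). The non-lysosomal glucosylceramidase gba2, which removes the glucose, was at 10.1, 10.1 and 9.64 against 9.17, 9.51 and 9.90 FPKM (log2 fold change 0.06, SE 0.08, adjusted p = 0.528), and the groups overlapped. Among sialidases, which trim gangliosides, neu3e (LG6, 24774095 to 24776729, minus strand) was at 1.93, 1.93 and 4.16 against 10.5, 10.5 and 11.6 FPKM. Knockdown library 3 stood above the other two yet below every control (log2 fold change -2.02, SE 0.24, adjusted p = 3.29e-08). The other 5 sialidase genes had at most 58 reads in a group.

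Among the 17 breakdown genes, which include sphingomyelinases, ceramidases and the enzymes of S1P, 9 were tested. Of these 2 rose and 6 fell (median log2 fold change -0.59, background 39.1% in each direction). The largest rise was in acer2, an alkaline ceramidase of the Golgi that frees sphingosine from ceramide (LG6, 19426821 to 19442596, minus strand). It was at 22.6, 23.8 and 22.4 FPKM in knockdown and 3.72, 4.01 and 3.63 FPKM in control libraries, 6.03-fold higher (log2 fold change 2.59, SE 0.09, adjusted p = 1.64e-18). The alkaline ceramidase acer3 fell slightly, from 13.6 ± 0.707 to 10.8 ± 0.805 FPKM (log2 fold change -0.34, SE 0.08, adjusted p = 0.000487). The 2 genes exchanged rank, acer2 being 1.94 to 2.23 times as high as acer3 in knockdown and 0.258 to 0.302 times in the controls. The summed level of the 4 ceramidase members, without the lysosomal acid ceramidase given further on, was 1.94-fold higher. The neutral ceramidase asah2 and acer1 had no read in any library. Sphingomyelinases, which release ceramide from sphingomyelin, moved apart. Transcripts of smpd4 were at 15.3, 18.6 and 18.5 against 8.29, 7.48 and 10.1 FPKM (log2 fold change 1.00, SE 0.10, adjusted p = 3.57e-09), and those of smpd5 (LOC100695336) were at 2.20, 3.03 and 2.75 against 6.38, 6.94 and 7.34 FPKM (log2 fold change -1.38, SE 0.16, adjusted p = 1.80e-08). The groups of smpd2 overlapped (1.77 ± 0.195 and 1.41 ± 0.319 FPKM, adjusted p = 0.276).

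The tested kinase, lyase and S1P phosphatase 1 genes, 4 in all, were called lower (background 39.1% lower), while the phospholipid phosphatases, which also act on S1P, are given further on. The lyase gene sgpl1 (LG13, 25467531 to 25474802, minus strand) had 29, 24 and 41 reads (0.521, 0.433 and 0.708 FPKM) in knockdown and 205, 173 and 264 reads (3.20, 2.92 and 3.96 FPKM) in control libraries. The fall was 6.07-fold (log2 fold change -2.60, SE 0.23, adjusted p = 1.46e-10), the largest fall among the tested members, and sgpl1 passed the filter only through the control libraries. Both copies of S1P phosphatase 1, which returns S1P to sphingosine, were lower as well. LOC100711669 (LG15) was at 3.32, 3.33 and 2.66 against 9.68, 10.1 and 9.49 FPKM (log2 fold change -1.66, SE 0.13, adjusted p = 1.10e-11). The other copy, sgpp1 (LG19), was at 1.01, 1.22 and 1.15 against 2.03, 2.09 and 3.08 FPKM (log2 fold change -1.10, SE 0.21, adjusted p = 3.47e-05). S1P phosphatase 2, sgpp2, was below the filter with more reads in knockdown (33) than in control libraries (13). Sphingosine kinase 2 (sphk2), which makes S1P, fell less, from 7.73 ± 0.337 to 5.16 ± 1.24 FPKM (log2 fold change -0.59, SE 0.11, adjusted p = 5.43e-05). The FPKM ratio of sphk2 to sgpl1 was 7.25 to 12.3 in knockdown and 2.05 to 2.62 in control libraries. Sphingosine kinase 1 was nearly silent (4 and 9 reads for sphk1, none for LOC100708657).

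**Figure D3:**
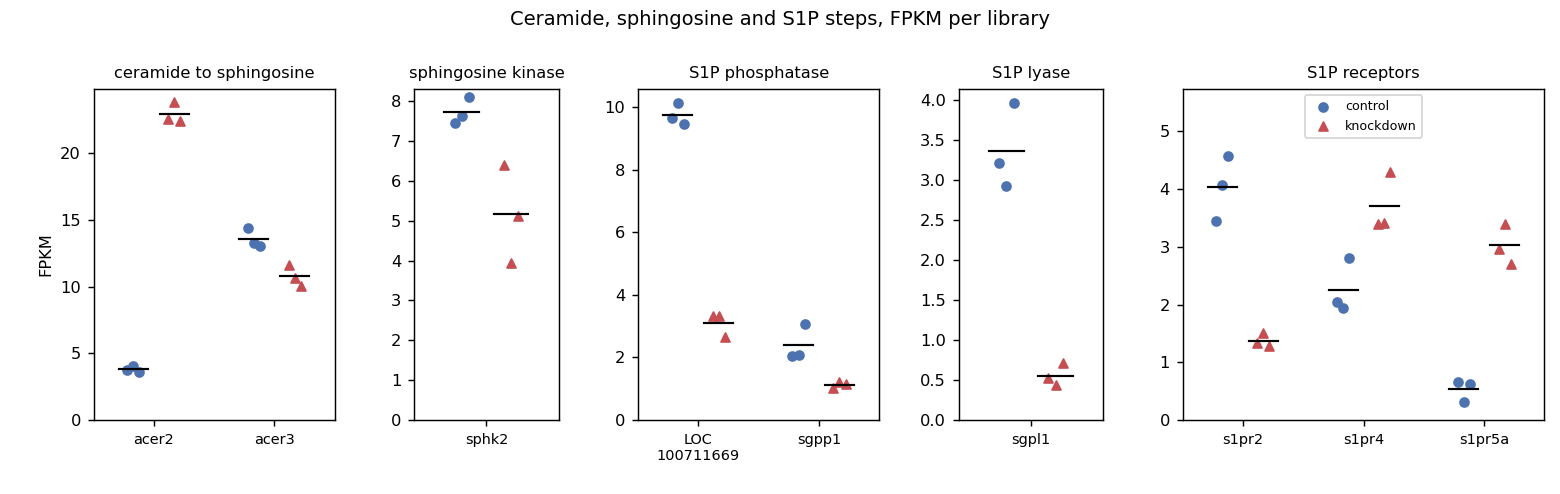
FPKM per library of tested genes from ceramide to S1P and its receptors, circles for control and triangles for knockdown libraries, with the group mean as a bar and each panel on its own axis from 0. In every gene shown the groups are apart, with acer2, s1pr4 and s1pr5a higher and the other 6 lower in the knockdown. Among all genes tested the groups are apart in 79.5%, and 39.1% are higher and 39.1% lower. The filter was passed by s1pr5a only through the knockdown and by sgpl1 only through the control libraries.

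Receptors of S1P, which are G protein-coupled, were few and weakly expressed. Of 7 genes 3 were tested, 2 rose and 1 fell (background 39.1% in each direction). The gene s1pr5a (LOC100709500, LG4), which the table describes as receptor 1, was at 2.97, 3.40 and 2.70 against 0.655, 0.307 and 0.628 FPKM (log2 fold change 2.48, SE 0.29, adjusted p = 2.89e-08), and it passed the filter only through the knockdown libraries. The gene s1pr4, a receptor of leukocytes in mammals, was the most abundant by mean, at 3.40, 3.41 and 4.30 against 2.04, 1.93 and 2.80 FPKM (log2 fold change 0.70, SE 0.23, adjusted p = 0.00851). In the opposite direction, s1pr2 (LOC100693419, LG4) was at 1.34, 1.51 and 1.28 against 3.46, 4.07 and 4.57 FPKM (log2 fold change -1.56, SE 0.21, adjusted p = 3.68e-07). The ratio of s1pr5a to s1pr2 was 2.11 to 2.26 in knockdown and 0.0753 to 0.190 in the controls. All tested markers of endothelium and leukocytes, cells in which S1P receptors are known to act, were higher in the knockdown, though untested vwf, cd79a, cd79b, cd4-1 and lck had fewer reads there (values above), and their part in the receptor levels was not tested. Below the filter, s1pr3a had 198 and 40 reads, s1pr1 had 33 and 1, s1pr5b had 4 and 5, and s1pr3b had 0 and 2 in knockdown and control libraries.

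Phospholipid phosphatases, 8 genes, remove phosphate from S1P and ceramide-1-phosphate but also from phosphatidic and lysophosphatidic acid, and the table assigns all 8 to glycerolipid metabolism too. Of 5 tested, 2 rose and 1 fell (background 39.1% in each direction). A pair described as phosphatase 1 moved in opposite directions. The gene plpp1 (LG7) was at 13.6, 13.2 and 14.8 against 3.96, 4.33 and 3.97 FPKM (log2 fold change 1.75, SE 0.11, adjusted p = 4.22e-13). The copy LOC100705853 (LG12) was at 8.63, 10.2 and 9.76 against 18.6, 20.8 and 18.6 FPKM (log2 fold change -1.03, SE 0.10, adjusted p = 5.39e-10). Their ratio was 1.30 to 1.57 in knockdown and 0.208 to 0.213 in the controls. The gene plpp2 was at 34.4, 37.9 and 35.6 against 16.8, 19.2 and 16.1 FPKM (log2 fold change 1.04, SE 0.08, adjusted p = 7.75e-12). The most abundant by mean, ppap2d (LOC100698562), was at 32.3, 30.8 and 32.1 against 30.7, 33.2 and 30.5 FPKM (log2 fold change 0.0044, SE 0.06, adjusted p = 0.949), and the groups overlapped, as they did for plpp3 (6.15 ± 0.751 and 6.65 ± 0.752 FPKM, adjusted p = 0.356). Below the filter, plpp2b had 291 reads in knockdown and 33 in the controls, and LOC100694799 had 7 and 48.

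**Figure D4:**
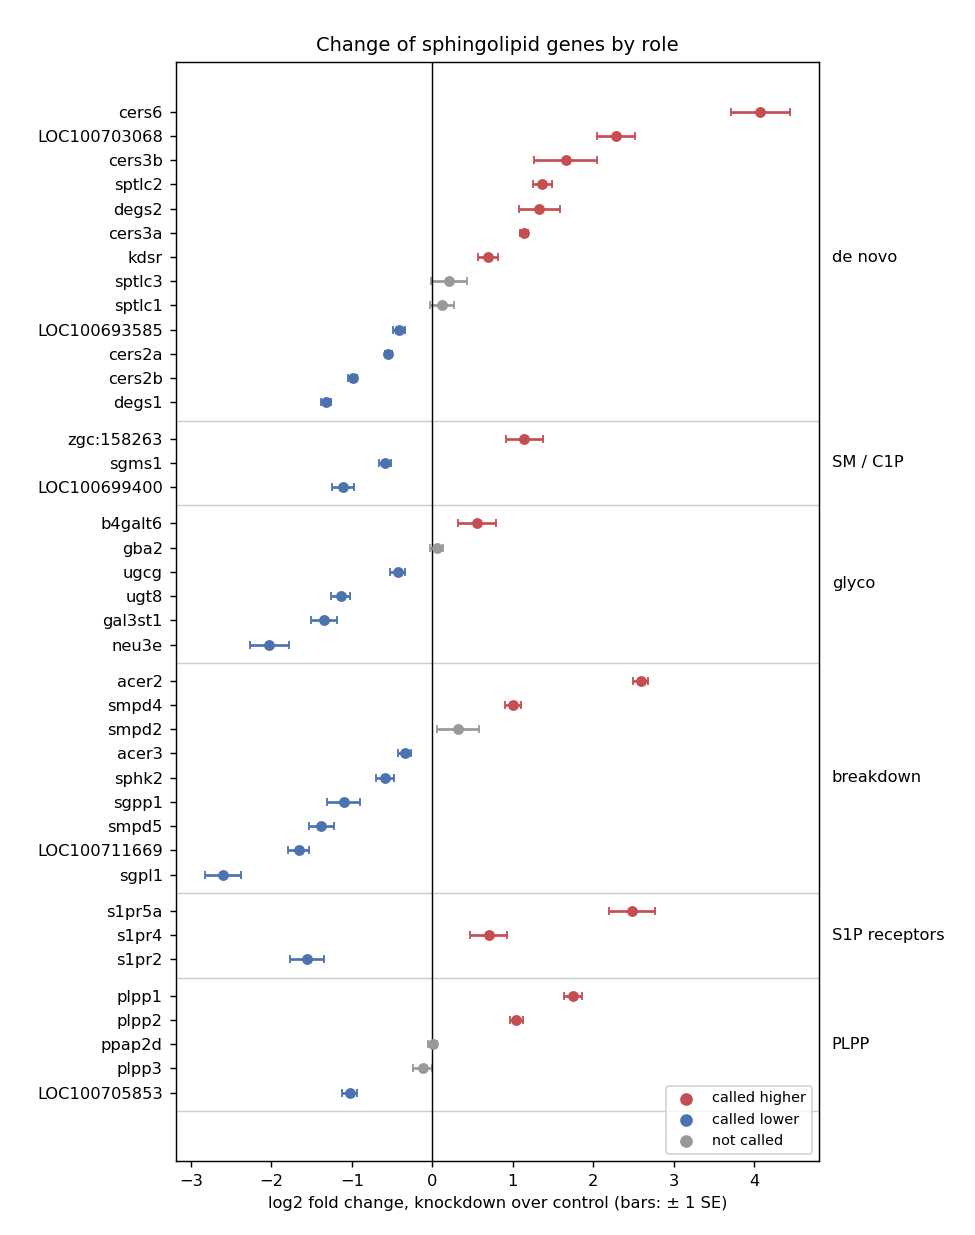
Log2 fold change, knockdown over control, of the 39 tested sphingolipid genes with bars of 1 SE, ordered within each role (SM / C1P, synthesis of sphingomyelin and ceramide-1-phosphate; PLPP, phospholipid phosphatases) and coloured by the call at an edgeR adjusted p under 0.05. Every role holds genes on both sides of 0, from sgpl1 at -2.60 to cers6 at 4.08. The filter was passed by sgpl1 only through the control libraries. It was passed by cers6, and by zgc:158263, the only SM / C1P gene above 0, only through the knockdown libraries.

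Copies with the same product description did not always move alike. Of 6 products with more than 1 tested copy, ceramide kinase, ceramide synthase 2 and phospholipid phosphatase 1 had copies called in both directions. With 39.1% of all genes tested higher and 39.1% lower, such splits say little about the copies. Those described as ceramide synthase 2 split by their RefSeq symbols, with cers2a and cers2b lower and cers3a and cers3b higher. Both copies of serine palmitoyltransferase 2 rose, both of S1P phosphatase 1 fell, and neither of phospholipid phosphatase 3 was called. Of the copies that rose, cers3b, the ceramide kinase gene zgc:158263 and LOC100703068 passed the filter only through the knockdown libraries, in which they were higher. Reads of similar copies could have been split between them in counting, so single copies are less certain than the sums given per step, and the strand setting of the counting is not given in the sources used here. Of the 28 members below the filter, 8 had no read in any library, namely acer1, asah2, smpd3, LOC100703793, LOC100708657, LOC100689757, LOC100690027 and LOC100690304.

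Genes that regulate or serve the same pathway, but lie outside the rule, were taken from 4 lists. The background beside their counts is again 39.1% of all genes tested higher and 39.1% lower. Of the 5 regulators of serine palmitoyltransferase 4 were tested, none rose and 2 fell (median log2 fold change -0.69). ORMDL proteins restrain the enzyme, and ormdl3 fell from 29.4 ± 1.09 to 7.65 ± 0.923 FPKM (log2 fold change -1.95, SE 0.08, adjusted p = 1.04e-17). Its relatives were not called, with ormdl1 at 5.62 ± 1.31 and 5.15 ± 0.399 FPKM in knockdown and control (adjusted p = 0.436). For ormdl2 the levels were 7.38 ± 1.70 and 5.88 ± 0.936 FPKM (adjusted p = 0.178). The small subunit sptssa, which activates the enzyme, fell from 25.5 ± 1.71 to 9.08 ± 1.46 FPKM (-1.50, SE 0.10). The other small subunit, sptssb, stayed under the filter with 1.59 ± 0.132 against 0.246 ± 0.00527 FPKM. Of 12 carriers and transporters found 8 were tested, 3 rose and 5 fell (median -0.57). The largest changes were in spns3, a relative of S1P exporters (log2 fold change 3.31, SE 0.39), in cptp, which carries ceramide-1-phosphate (-2.23, SE 0.28), and in the S1P exporter spns2, which rose to 6.24 ± 0.186 FPKM from 1.94 ± 0.302 (1.68, SE 0.12). Of these, spns3 (2.57 ± 0.584 against 0.251 ± 0.0768 FPKM) passed the filter only through the knockdown libraries. For cptp (0.548 ± 0.240 against 2.55 ± 0.0689 FPKM) the filter was passed only through the control libraries.

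All 14 lysosomal hydrolases and activators found were tested, 8 rose and 4 fell (median 0.30, background 39.1% in each direction). Even so, their summed level was lower in the knockdown (224 to 236 against 261 to 266 FPKM), with the abundant psap and scarb2a among those that fell. The largest changes were in neu1 (log2 fold change 1.57, SE 0.10), scarb2a, a membrane carrier of glucosylceramidase (-1.14, SE 0.05) and naaa (1.11, SE 0.11), a relative of acid ceramidase that acts on other amides. Acid ceramidase itself, asah1, was at 6.76 ± 0.780 and 8.13 ± 1.04 FPKM (adjusted p = 0.0940). Of 12 ganglioside and globoside transferases found only 2 were tested. The gene b4galnt1a rose to 5.94 ± 1.03 FPKM from 0.794 ± 0.260 (log2 fold change 2.88, SE 0.20) and passed the filter only through the knockdown libraries. Transcripts of st3gal5, which makes the first ganglioside, were at 9.99 ± 1.22 and 11.0 ± 0.946 FPKM (adjusted p = 0.230).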

How the data were processed

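Pooled liver RNA, read as 3 knockdown and 3 control libraries, was enriched for poly(A) and sequenced from both ends over 150 bases, per the labels' protocols. The submitters' processing notes name cutadapt 1.9 and HISAT. Counting program, strand setting and build: not given in the sources used here. One table holds the deposited read counts and the deposited FPKM. The authors' FPKM equalled count per gene length and library total in 100% of values (relative tolerance 1e-05). Start and end of 29523 genes equal those of the O_niloticus_UMD_NMBU assembly in an NCBI table that matched 29526 identifiers. Linkage groups, and symbols for 19 of the 33 members named only by a locus number, come from that table.

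Counts of genes averaging 1 FPKM or more (99.0% of reads) were tested with edgeR 4.0.16 in R 4.3.3 (quasi-likelihood test, TMM scaling, no covariate), with Benjamini-Hochberg adjustment over all 11431 genes. The common biological coefficient of variation was 9.40%. SE is the log2 fold change divided by the square root of F. The steps were tested on simulated counts in which only a small part of the genes changed. That test does not cover changes as widespread as those found here. Alternatives used limma 3.58.1 and DESeq2 1.42.0. Shares and ratios were computed from FPKM. The test of elovl6 was also an exact permutation test. Named were tested members called and changed at least 2-fold, the most abundant member of each role, and up to 3 genes per list outside the rule. Members, lists and roles were chosen with earlier results of these data known. Total counts limit the precision of genes with few reads.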

Additional observations from a re-analysis of the deposited data

How the results depend on the processing

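Of the 39 tested members, all 33 calls kept their direction under all 17 alternatives that tested them, and b4galt6 was the only one to lose its call. It was lost with limma at a pseudocount of 1 (adjusted p = 0.109) or 0.1 (0.124), with no filter (0.0640), with filterByExpr (0.0723) and without a library, as given above, and its adjusted p ranged from 0.00254 to 0.214. The count of higher glycosphingolipid genes was 0 with either limma setting and with filterByExpr, and 0 to 1 over the libraries left out. No tested member gained a call. Scaling moved the median log2 fold change of all genes by at most 0.017. With no filter it moved by -0.095, and the uncalled values of ppap2d (-0.091) and gba2 (-0.039) changed sign, as they did with filterByExpr (-0.073 and -0.020). With a library left out ppap2d ranged from -0.022 to 0.037. A minimum mean of 5 FPKM left 22 members and 5469 genes and called 2341 genes higher and 2321 lower. It called 6 members higher, with 3 lower in breakdown and 0 higher in glycosphingolipid steps, since fewer genes were tested. In sphingomyelin and ceramide phosphate synthesis 0 were higher and 1 lower, and 0 receptors were called in either direction. In de novo synthesis 2 stayed higher (cers3a and sptlc2) and 4 stayed lower (cers2a, cers2b, LOC100693585 and degs1). The balance of calls in that role thus turned from higher to lower, and the median log2 fold change of the 22 members was -0.32. With no filter and with filterByExpr more genes were tested, and 2 phospholipid phosphatases were called lower and 2 genes of sphingomyelin and ceramide phosphate synthesis higher, and with no filter 4 receptors were called higher. Deviations of same-numbered libraries correlated between the groups by -0.0033, 0.0064 and -0.0025, and not every library correlated best with its own number. With 3 libraries in each group such values cannot decide whether a shared number marks matched pools or is only a label. With the replicate number as a block 4409 genes were called higher and 4447 lower, and all 33 member calls were kept. Genes with few reads, such as cers6 in the controls and sgpl1 in the knockdown, are limited by depth.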

Other observations

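The 67 members lay on 20 linkage groups. LG6 held 10, among them acer2, ugt8, neu3e and 3 further sialidase genes next to neu3e that were close to or at 0 reads, and LG7 held 9. A few members lay near each other, and the genes between them were not examined. On LG11 cers2b and sphk2, which both fell (background 39.1% lower), were 263 kb apart. On LG17 81.35 kb separated untested s1pr1 from b4galt6. On LG23 the receptor gene s1pr4, which rose, lay 74.0 kb from cers1, which was untested with 174 reads in knockdown and 377 in control libraries. Also on LG23, 47.6 kb separated plpp2b and s1pr3a, both too low to be tested. Knockdown libraries held 291 reads of plpp2b and 198 of s1pr3a, against 33 and 40 in control libraries. The 37 members that the table also assigns to sphingolipid signalling include 22 of the 39 tested.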
